A study of Mus musculus with 12 samples.

Results

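Protocadherins are cell surface adhesion proteins of the cadherin superfamily. Members were taken by name: every probe on the array whose gene name begins with Pcdh. This gave 44 gene names of 27962 on the array, and 71 of its 41174 probes. Of these, 45 probes belong to 31 clustered names and 26 to 13 non-clustered names. The clustered probes were 6 for alpha, 29 for beta and 10 for gamma genes, under 3, 22 and 6 names. One non-clustered name, Pcdh21, is an older name of Cdhr1, a cadherin of photoreceptors. How many arrays each probe was well above background on was part of how the members were described, so these flags are given without a test.

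The clustered genes lie in 3 neighbouring clusters on chromosome 18. Each alpha or gamma transcript joins a variable first exon with its own promoter to constant exons shared by its cluster, the beta genes are single-exon genes, and neurons choose among the promoters, which gives each cell its own combination of surface proteins. The non-clustered genes are scattered over the genome. They include the delta group, which binds like molecules weakly, signals to the actin cytoskeleton and is best known from the developing brain.

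The study measured RNA in mouse embryonic stem cells of the line E14 after depletion of the catalytic subunits of the Tip60-p400 chromatin complex. All groups received 0.33 ng/µl esiRNA (short interfering RNAs cut enzymatically from long double-stranded RNA) with Lipofectamine 2000 for 72 hr, in 1 well of a culture dish per sample. The esiRNA was directed against p400 (Ep400, a remodelling ATPase), Tip60 (Kat5 or Htatip, a histone acetyltransferase) or, as control, the reporter EGFP. The p400 RNA was set against EGFP RNA on 4 two-colour arrays with dyes swapped, and Tip60 and EGFP RNA were each hybridised to 4 single-colour arrays. The series describes the replicates as biological. It does not say whether both experiments used the same EGFP cultures. Both knockdowns are transient, and the labels do not give the stretch of each transcript that the esiRNA covers.

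On these Agilent arrays, 26086 to 29045 probes were well above background per channel on the two-colour slide. The number was 23636 to 28388 on the single-colour arrays of the comparison and 20970 on Tip60 replicate 3, an array the submitters left out as an outlier and which is left out here too. The ratios on p400 replicate 4 spread less over all probes (SD 0.33) than those on the other 3 arrays (0.47 to 0.51). The targeted genes fell: the Ep400 probe A_51_P380165 stood at -0.65, -0.77, -0.24 and -0.67 on p400 replicates 1 to 4 (limma adjusted p = 0.00528), and Kat5 was lower by 1.49 ± 0.07 on the log2 scale in Tip60 knockdown (limma adjusted p = 1.53e-05). Kat5 was also lower in p400 knockdown, with log2 ratios of -0.28, -0.41, -0.27 and -0.76 (-0.43 ± 0.08, limma adjusted p = 0.0107). Of the other 3 Ep400 probes, one fell (-0.72), one stood at 0.22 (limma adjusted p = 0.0787) and one was too dim to test. All 9 pluripotency markers were well above background on every EGFP array. Precision is limited by the number of arrays.

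Sequences are shown for the non-clustered members on which most results turn. The first set identifies what was measured: the first 30 bases of the 60-base array probe, with its position on build mm7. Both Pcdh9 probes that could be tested are given because they differed.
Pcdh8 probe A_51_P274488, chr14:74447610-74447669, minus strand: aatgtgttggaattgctcattgggatttta
Pcdh17 probe A_52_P111031, chr14:79210409-79210468, plus strand: tccaagctacaccaaacattaacccatatt
Pcdh19 probe A_52_P432969, chrX:128307030-128307089, minus strand: agagctttccctaaatgtattgtgtataag
Pcdh9 probe A_52_P197199, chr14:88233295-88233354, minus strand: tttactggtctataagtactgcctacaagt
Pcdh9 probe A_51_P432432, chr14:88234568-88234627, minus strand: gtaatcacagtgacagacgaagacgctgga
Whether a probe lies in a coding or untranslated exon is not analysed here, since no annotation of that build was used.

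The second set shows the promoters of 4 of the 5 genes that were higher in both knockdowns, as the 250 bases before the RefSeq transcript start (build GRCm38.p6), with each CG in capitals. CG is the pair at which mammalian DNA is methylated.
Pcdh8 promoter, chr14:79771313-79771562, minus strand: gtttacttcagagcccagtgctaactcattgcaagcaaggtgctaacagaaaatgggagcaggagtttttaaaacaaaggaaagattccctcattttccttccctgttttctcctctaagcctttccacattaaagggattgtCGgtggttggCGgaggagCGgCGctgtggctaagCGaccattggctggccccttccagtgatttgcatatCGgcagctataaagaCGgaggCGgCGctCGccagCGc
Pcdh17 promoter, chr14:84443313-84443562, plus strand: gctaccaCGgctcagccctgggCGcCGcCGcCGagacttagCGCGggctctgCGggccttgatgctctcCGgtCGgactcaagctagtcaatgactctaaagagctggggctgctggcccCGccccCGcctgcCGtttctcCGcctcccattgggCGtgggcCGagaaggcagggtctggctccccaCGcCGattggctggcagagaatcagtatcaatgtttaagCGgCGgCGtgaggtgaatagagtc
Pcdh19 promoter, chrX:133688994-133689243, minus strand: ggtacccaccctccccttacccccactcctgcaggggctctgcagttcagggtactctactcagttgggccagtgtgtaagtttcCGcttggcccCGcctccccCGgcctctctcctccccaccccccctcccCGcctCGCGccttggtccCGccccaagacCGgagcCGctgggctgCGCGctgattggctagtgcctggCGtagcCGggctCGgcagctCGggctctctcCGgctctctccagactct
Pcdh9 promoter, chr14:93890680-93890929, minus strand: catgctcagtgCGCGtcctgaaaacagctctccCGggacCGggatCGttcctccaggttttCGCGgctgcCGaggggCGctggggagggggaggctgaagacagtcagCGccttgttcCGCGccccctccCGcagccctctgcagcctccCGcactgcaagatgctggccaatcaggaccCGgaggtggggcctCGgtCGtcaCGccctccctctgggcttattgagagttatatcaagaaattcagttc
The Pcdh8 window held 11 CG, the Pcdh17 window 21, the Pcdh19 window 16 and the Pcdh9 window 18. The median over 32851 RefSeq promoter windows of this length was 6, and 66.5%, 85.2%, 76.5% and 80.3% of the windows held as few as or fewer than these 4. The TATAAA motif was searched on both strands and does not overlap CG. It was present in the Pcdh8 window and in 12.4% of all windows, and the other 3 windows did not have these letters. RefSeq windows were read for 9 non-clustered symbols. Those of Pcdh10 and Pcdh18 held 22 and 23 CG, those of Pcdh7, Pcdh15 and Pcdh20 held 7, 6 and 3. Among these, the Pcdh15 window also held TATAAA and the others did not.

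Most protocadherin probes were dim in these cells. Of the 71 probes, 35 (49.3%) were well above background in none of the 15 channels compared (4 p400, 4 two-colour EGFP, 4 single-colour EGFP and 3 Tip60), against 21.61% of all probes. On all 4 single-colour EGFP arrays, 12 of 71 (16.9%) were well above background, against 56.88% of all probes. The beta genes were the dimmest family, with 19 of 29 probes in none of the channels and 0 of 29 on all 4 EGFP arrays. The gamma family had 6 of 10 and the alpha family 1 of 6 probes above background on all 4 EGFP arrays, and the non-clustered genes 5 of 26. Signal over background of a spot also depends on the probe, so these counts rank probes and not transcripts. In bulk RNA, fewer cells with a transcript and less transcript per cell cannot be told apart.

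**Figure D1:**
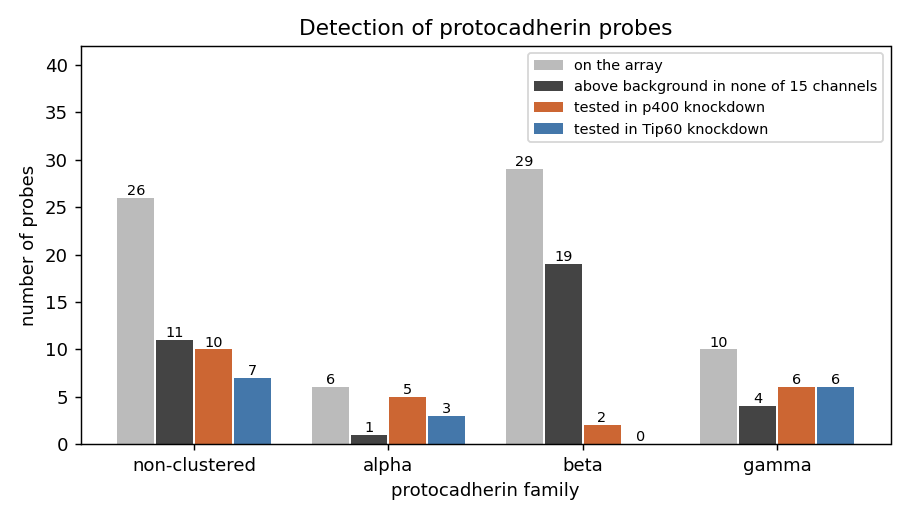
Number of probes (vertical axis) by protocadherin family (horizontal axis): on the array, above background in none of 15 channels, and tested in each knockdown. Of 29 beta probes, 19 were above background nowhere, 2 were tested in p400 knockdown and 0 in Tip60 knockdown.

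Testing needed a signal well above background on 3 or more arrays of knockdown or of EGFP RNA, which let 23 members into the p400 comparison and 16 into the Tip60 comparison. All 16 were among the 23. A member dim in EGFP RNA thus entered only where it was bright in knockdown RNA and had to be higher there, so counts over tested members do not stand for all members. This touched Pcdh17 (A_52_P111031), Pcdh9 (A_52_P197199) and Pcdh10 (A_51_P209150), which were above background on 4 of 4 p400 and 0 of 4 EGFP channels of the two-colour arrays, and the Pcdh9 probe A_51_P432432, on 4 and 1. In the Tip60 comparison it touched Pcdh9 (A_52_P197199), with 3 of 3 Tip60 and 0 of 4 EGFP arrays, and Pcdh17 and the Pcdha6 probe A_51_P324950, with 2 of 4 EGFP arrays each. Just inside the limit, the Pcdha9 probe A_52_P378167 was above background on 3 of 4 EGFP and 3 of 3 Tip60 arrays. Just outside it, Pcdh10 and Pcdhb5 (A_51_P257292) were above background on 2 of 3 Tip60 arrays, with 0 and 2 of 4 EGFP arrays. The untested p400 members had mean log2 ratios between -0.11 and 0.12 for 27 beta probes, between -0.06 and 0.04 for 4 gamma probes and between -0.09 and 0.21 for 16 non-clustered probes, with 0.04 for the Pcdha4 probe. Those dim signals are not measurements of a change. Pcdh7, Pcdh11x, Pcdh15 and Pcdh20 were above background on no array of either comparison.

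The first comparison asks which protocadherin transcripts depend on p400. Non-clustered genes were higher after p400 knockdown: Pcdh8, Pcdh19, Pcdh17, Pcdh9, Pcdh21 and Pcdh10 rose, by 5.45-fold for Pcdh8 and by 1.23-fold to 1.58-fold for the others. Among the clustered genes none rose, and 1 of 4 tested Pcdhga7 probes fell. By family, 6 of 10 tested non-clustered probes rose and 0 fell, and 0 of 13 tested clustered probes rose and 1 fell. At an unadjusted p of 0.05 by limma, 7 non-clustered and 4 clustered probes passed in either direction, against 45.4% of all probes tested. Over all 27962 probes tested, 33.1% were called either way, 18.1% higher and 15% lower (limma, two-sided, Benjamini-Hochberg adjusted p of 0.05). The median log2 ratio was 0.31 for non-clustered and 0.01 for clustered members, against -0.0048 over all probes. On all 4 arrays 8 of 10 non-clustered and 2 of 13 clustered members were above 0, and 0 and 5 were below 0. For all probes tested these shares were 26.3% and 25.6%. Among the 6 non-clustered probes above background on 3 or more EGFP channels, which leaves out Pcdh17, Pcdh10 and both Pcdh9 probes, 3 rose (Pcdh8, Pcdh19 and Pcdh21) and 0 fell, with a median of 0.27. Over the 26957 probes under that filter, 17.6% were higher and 15.6% lower, and all 13 tested clustered probes met it. Without replicate 2, and without replicate 3, 3 members were called higher in place of 6, and with the deposited series matrix values 10 were.

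Pcdh8, a delta-2 protocadherin of the paraxial mesoderm and of active synapses, had the largest change among the members. Its log2 ratios of p400 knockdown over EGFP were 2.46, 3.63, 2.30 and 1.40 on replicates 1 to 4. All 4 arrays were well above 0, replicate 2 being highest and replicate 4 lowest. The estimate was 2.45 ± 0.32 SE (n = 4, limma adjusted p = 0.00372), and it was above background in both RNAs on all 4 arrays.

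Pcdh19, a delta-2 protocadherin whose gene lies on the X chromosome and is mutated in an inherited epilepsy, gave 0.95, 0.82, 0.68 and 0.20 with probe A_52_P432969. Every array was above 0, with replicate 4 lowest. The estimate was 0.66 ± 0.11 (n = 4, limma adjusted p = 0.00816). A second probe, A_51_P348232, was above background on 2 of 4 channels of each RNA and was not tested.

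Pcdh17, a delta-2 protocadherin of synapses in the basal ganglia circuits, gave 0.65, 0.65, 0.87 and 0.14. Its ratio was above 0 on each array, again with replicate 4 lowest. EGFP RNA gave a dim spot on all 4 arrays, and the measured fold over that dim signal was 1.49 (log2 0.58 ± 0.10, limma adjusted p = 0.00847). Set against the 1st percentile of the signals well above background on each array where the dim signal was lower, a floor chosen after seeing the data, it was at least 1.38-fold higher. The lowest signal well above background as the floor left the measured fold as it was for this and the other probes dim in all EGFP RNA. Its 2 other probes were above background on no p400 channel.

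Pcdh10, a delta-2 protocadherin that guides growing axons, gave 0.30, 0.49, 0.34 and 0.09 with a measured fold over a dim EGFP signal of 1.23 and at least 1.15-fold with the same floor (log2 0.30 ± 0.09, limma adjusted p = 0.0378). Its call was lost without replicate 1, 2 or 3 (adjusted p = 0.0753, 0.217 and 0.0952). Its 3 other probes were above background on no p400 channel. Pcdh18, the remaining delta-2 member, gave 0.21, 0.33, 0.35 and 0.05 and did not pass the threshold (0.23 ± 0.08, limma adjusted p = 0.0604). All 4 arrays lay above 0 for both genes.

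Among delta-1 protocadherins, Pcdh9, of the brain, gave 0.41, 0.47, 0.69 and 0.04 with probe A_52_P197199 with a measured fold over a dim EGFP signal of 1.32 and at least 1.20-fold with the same floor (log2 0.40 ± 0.10, limma adjusted p = 0.0225). The call was lost without replicate 2 or 3 (adjusted p = 0.110 and 0.0748). A second Pcdh9 probe, A_51_P432432, gave 0.12, 0.10, 0.30 and 0.04 and did not pass (0.14 ± 0.07, limma adjusted p = 0.168), so the 2 probes differed in call and not in sign. Pcdh1, an adhesion protein of the airway epithelium, gave 0.22, -0.31, 0.39 and -0.28. Its sign went with the dye, positive where p400 RNA carried Cy5 (replicates 1 and 3) and negative where it carried Cy3, and the estimate with a dye term was 0.00 ± 0.07 (limma adjusted p = 0.968). With median centring of the arrays instead of loess Pcdh1 was called lower (-0.25, adjusted p = 0.0322).

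Of the other non-clustered names, Pcdh21 (Cdhr1) gave 0.20, 0.55, 0.25 and 0.25. All 4 arrays were above 0 and replicate 2 stood apart. It rose by 0.31 ± 0.08 (n = 4, limma adjusted p = 0.0243), a call lost with median centring (0.11, adjusted p = 0.304) and without replicate 1, 2 or 3 (adjusted p = 0.0504, 0.154 and 0.0667). Pcdh12, a protocadherin of endothelium and of placental glycogen cells, gave 0.20, -0.22, -0.32 and -0.12 and did not pass (-0.12 ± 0.10, limma adjusted p = 0.398).

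The size of these ratios depends on the processing. An offset of 50 was added to both channels, which draws ratios of dim spots toward 0. LogRatio as deposited was used with no offset, normexp or loess added here. The steps that Feature Extraction had applied to it were not examined, and which step moved the ratios was not tested. With LogRatio, Pcdh8 stood at 4.42, Pcdh17 at 3.28, Pcdh9 (A_52_P197199) at 2.41, Pcdh10 at 1.83 and Pcdh19 at 1.21 on the log2 scale, all past the threshold. Pcdh18 at 1.07 and the second Pcdh9 probe at 1.09 then passed as well (limma adjusted p = 0.00517 and 0.0131), and Pcdh21 stood at 0.32. The direction was the same for each of these 8 probes, and the p400 fold changes of the dim genes are not exact sizes.

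**Figure D2:**
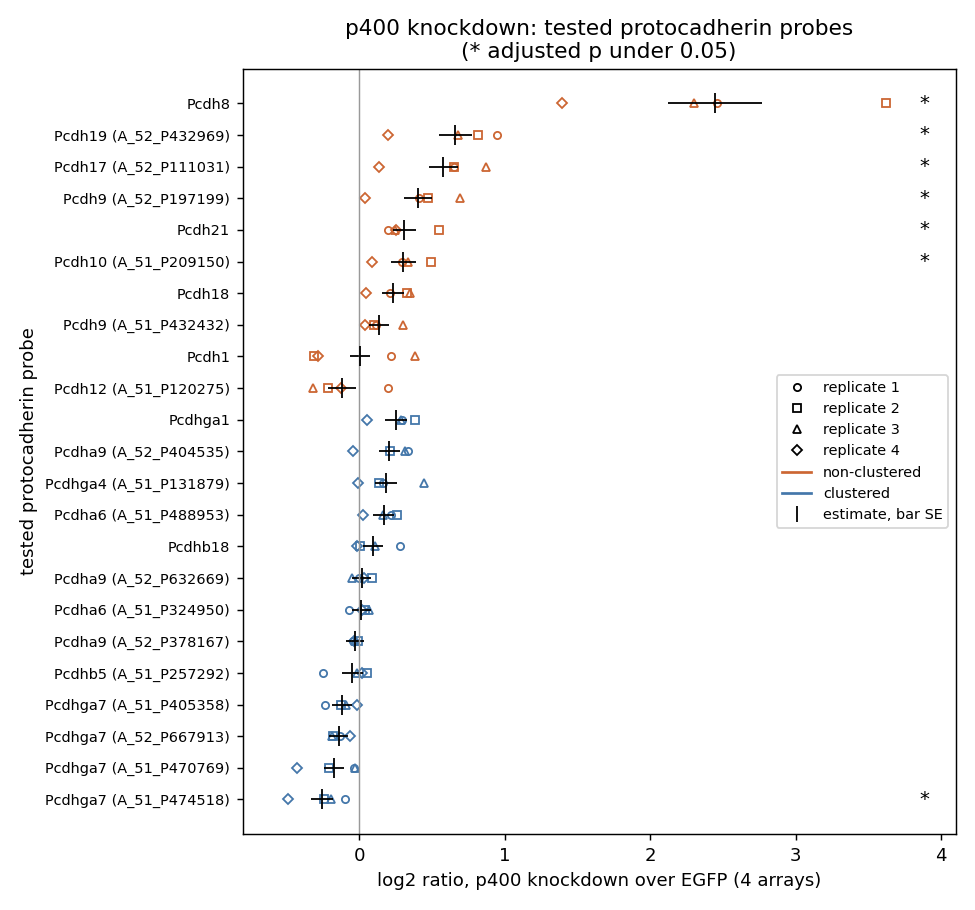
Log2 ratio of p400 knockdown over EGFP (horizontal axis) for the 23 tested protocadherin probes (vertical axis), with 1 open symbol per array, a black tick for the limma estimate, a bar for its SE and a star for adjusted p under 0.05. Pcdh8 lies between 1.40 and 3.63, and the estimates of the clustered probes lie between -0.25 and 0.25.

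With the offset of 50, the clustered genes were close to 0 in p400 knockdown. Of the 13 tested, the 12 not called lay between -0.17 and 0.25 with limma adjusted p from 0.0503 to 0.896. In the alpha cluster, the Pcdha6 probe A_51_P324950 stood at 0.01 and the Pcdha9 probe A_52_P378167 at -0.03, both upstream in the cluster. Farther downstream, at chr18:37532367-37563623, toward the end of the cluster that holds the constant exons, 3 probes named Pcdha9 or Pcdha6 stood at 0.02, 0.21 and 0.17. One of these, A_52_P632669, is mapped by its header across a gap, from 37532367 to 37535477. Of the beta genes, Pcdhb5 stood at -0.05 and Pcdhb18 at 0.10. With LogRatio as deposited, the downstream Pcdha6 probe A_51_P488953 stood at 0.74 (limma adjusted p = 0.00517) and the Pcdha9 probe A_52_P404535 at 0.56 (limma adjusted p = 0.0662). The same Pcdha6 probe passed with median centring (0.26, adjusted p = 0.0389) and with series matrix values (0.27, adjusted p = 0.0221), and the Pcdha9 probe with median centring (0.30, adjusted p = 0.0194).

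In the gamma cluster, Pcdhga1, of the variable exons at the upstream end, gave 0.30, 0.38, 0.29 and 0.05. All 4 arrays were above 0, and the estimate of 0.25 lay just past the limit (± 0.08, limma adjusted p = 0.0503). It passed in some of the alternatives, among them series matrix values (adjusted p = 0.0173) and median centring (0.24, adjusted p = 0.0353). Pcdhga4 stood at 0.18 (adjusted p = 0.115 by limma). The 4 tested probes named Pcdhga7 were all below 0, at -0.12, -0.14, -0.17 and -0.25 in upstream to downstream order. The last, A_51_P474518, gave -0.09, -0.24, -0.19 and -0.49 and passed (-0.25 ± 0.07, limma adjusted p = 0.0410). It shares most of its bases by position (chr18:38217926-38217985) with A_51_P470769 (chr18:38217906-38217965), which did not pass (-0.17, limma adjusted p = 0.105). The call on A_51_P474518 was lost without any 1 of the 4 replicates (adjusted p from 0.0654 to 0.207). With LogRatio as deposited it passed (-0.32, limma adjusted p = 0.0421), as did A_51_P405358 (-0.52, adjusted p = 0.0177) and A_52_P667913 (-0.51, adjusted p = 0.00989). The 3 downstream Pcdhga7 probes, from 38216275 on, lie after every other protocadherin probe of the cluster, at the end where the constant exons are. Whether they read all gamma transcripts was not tested.

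The second comparison asks which protocadherin transcripts depend on Tip60. Non-clustered genes were again higher: Pcdh8 rose 5.53-fold, Pcdh9 6.49-fold over a dim EGFP signal, Pcdh17 3.05-fold, Pcdh19 1.67-fold and Pcdh21 1.41-fold. Pcdhga1 rose 1.45-fold and 1 Pcdhga7 probe fell. Of 7 tested non-clustered probes 5 rose and 0 fell, and of 9 tested clustered probes 1 rose and 1 fell. At an unadjusted p of 0.05 by limma, 5 and 2 passed in either direction, against 35.4% of all probes tested. Over all 25317 probes tested, 22.7% were called, 13.2% higher and 9.46% lower (limma, two-sided, adjusted p of 0.05). The median log2 difference was 0.74 for non-clustered and 0.18 for clustered members, against 0.0015 over all probes. In 6 of 16 tested members every Tip60 array lay above every EGFP array and in 1 every Tip60 array lay below, against 18% and 16.3% of all probes tested. Among the probes above background on 3 or more EGFP arrays, which leaves out Pcdh9 and Pcdh17, 3 of 5 non-clustered members rose (Pcdh8, Pcdh19 and Pcdh21) and 0 fell, and of 8 clustered members 1 rose and 1 fell. Their medians were 0.49 and 0.17, and over the 24673 probes under that filter 12.2% were higher and 9.71% lower. No beta probe could be tested.

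Levels in this comparison are log2 signals set against the 75th percentile of the same array. A level is comparable between arrays of 1 probe but not between probes. Pcdh8 had levels of -4.53, -4.64, -4.57 and -4.76 in EGFP replicates 1 to 4 and of -2.08, -2.29 and -2.10 in Tip60 replicates 1, 2 and 4. The groups lay far apart, and Tip60 replicate 3, left out of the test, stood with the other Tip60 arrays at -2.05. The difference was 2.47 ± 0.08 SE (n = 3 and 4, limma adjusted p = 2.24e-06). With normexp and quantile normalization it was 1.39 and with the deposited series matrix values 1.48, both still past the threshold.

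Pcdh19 (A_52_P432969) had levels of -3.64, -3.88, -3.72 and -3.74 in EGFP and of -3.08, -3.01 and -2.93 in Tip60 RNA. The groups did not overlap. The rise was 0.74 ± 0.07 (limma adjusted p = 0.00055), and 0.32 with normexp and quantile normalization.

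Pcdh17 (A_52_P111031) had levels of -5.91, -5.97, -4.57 and -5.98 in EGFP and of -4.04, -3.98 and -3.98 in Tip60 RNA. The groups did not overlap, but EGFP replicate 3 stood apart from the other 3 EGFP arrays, and the probe was above background on 2 of 4 EGFP arrays. The rise was 1.61 ± 0.34 (limma adjusted p = 0.0151), and it was 0.57 with normexp and quantile normalization and 0.55 with series matrix values, both still past the threshold. It missed the threshold without Tip60 replicate 4 (1.60, adjusted p = 0.0514) and within slide 2, where EGFP replicate 3 is 1 of 2 EGFP arrays (1.26, adjusted p = 0.174).

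Pcdh9 (A_52_P197199) had levels of -8.00, -7.77, -7.85 and -7.24 in EGFP, where no array was above background, and of -4.84, -4.79 and -5.43 in Tip60 RNA, where all 3 were. The groups were far apart, and the probe was not above background on Tip60 replicate 3, at -5.59. The difference was 2.70 ± 0.22 (limma adjusted p = 0.0002), which is measured against dim signals. With the 1st percentile of signals well above background as the floor, -5.78 to -4.99 on the EGFP arrays, the rise was at least 1.37-fold. With normexp and an offset of 50, then quantile normalization, the same arrays gave 0.45 (adjusted p = 0.00147). Its other probe tested with p400, A_51_P432432, was above background on 0 of 7 arrays here. The remaining Pcdh9 probes, A_51_P475704, A_51_P124262 and A_52_P461777, were above background on no array of either comparison.

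Pcdh21 (Cdhr1) had levels of -1.54, -1.73, -1.61 and -1.63 in EGFP and of -1.16, -1.15 and -1.08 in Tip60 RNA. It rose by 0.49 ± 0.06 with no overlap (limma adjusted p = 0.00163), and Tip60 replicate 3 stood at -1.31. Pcdh10 could not be tested, being above background on 2 of 3 Tip60 and 0 of 4 EGFP arrays, with levels of -6.81 to -6.44 in EGFP and -5.43 to -4.49 in Tip60 RNA. Pcdh12 was above background on 2 of 4 EGFP and 2 of 3 Tip60 arrays and was not tested either. Pcdh18 and Pcdh1 did not pass and their groups overlapped (0.06 ± 0.16 and -0.10 ± 0.17, limma adjusted p = 0.806 and 0.724).

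**Figure D3:**
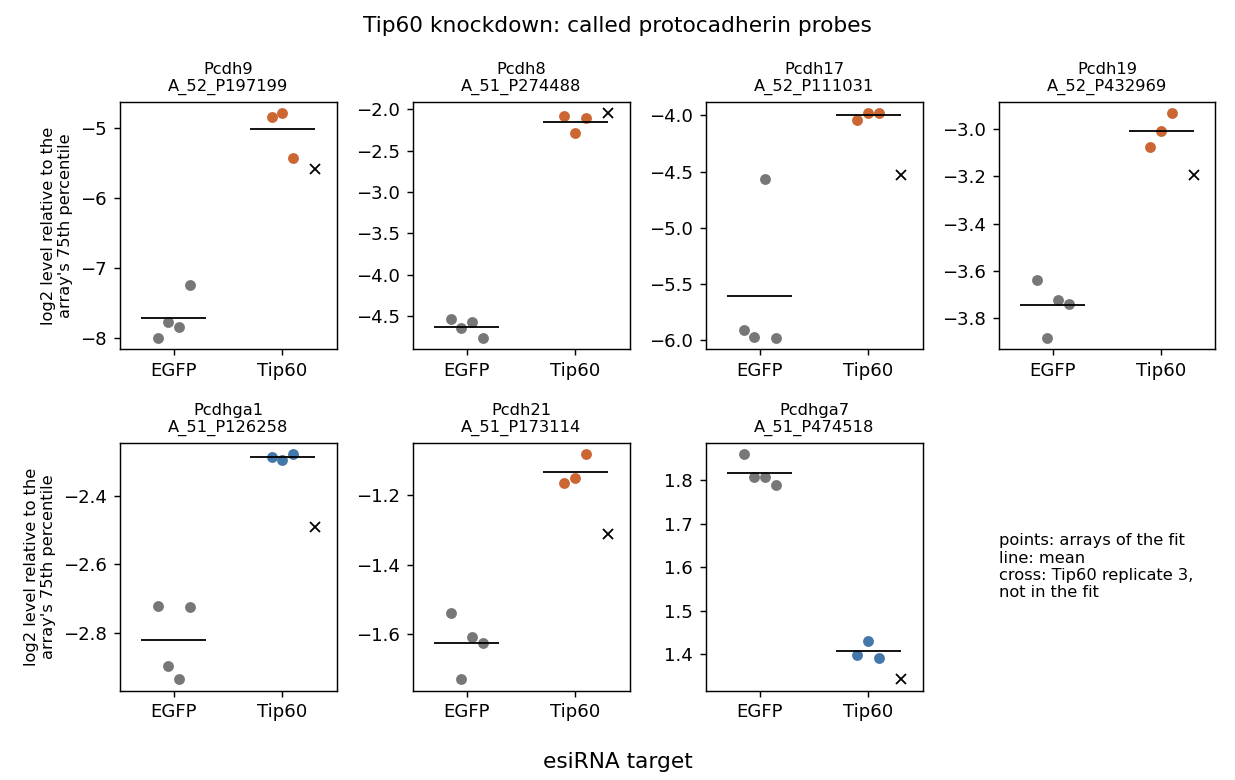
Log2 level relative to the array's 75th percentile (vertical axes, which differ between panels) of the 7 protocadherin probes called in Tip60 knockdown, for 4 EGFP arrays and 3 Tip60 arrays (points, lines for means), with Tip60 replicate 3 as a cross. The groups do not overlap in any panel, and EGFP replicate 3 of Pcdh17 stands apart at -4.57.

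Of the clustered genes, Pcdhga1 rose by 0.53 ± 0.07 (limma adjusted p = 0.00213). Its levels were -2.72, -2.90, -2.93 and -2.72 in EGFP and -2.29, -2.30 and -2.28 in Tip60 RNA, with no overlap, and Tip60 replicate 3 lay between the groups at -2.49. The Pcdhga7 probe A_51_P474518 had levels of 1.86, 1.81, 1.81 and 1.79 in EGFP and of 1.40, 1.43 and 1.39 in Tip60 RNA. It fell by 0.41 (± 0.05, limma adjusted p = 0.00124). The probe that overlaps it, A_51_P470769, had 1.55, 1.42, 1.79 and 1.40 in EGFP and 1.04, 1.78 and 1.18 in Tip60 RNA. These groups overlapped and it did not pass (-0.20 ± 0.19, limma adjusted p = 0.480), so the call in the shared stretch rests on 1 of 2 nearly coincident probes. The other 2 Pcdhga7 probes stood at 0.15 and -0.01, Pcdhga4 at 0.30 and the 3 tested alpha probes between 0.18 and 0.32, and none of these 6 passed. The 7 clustered probes not called had limma adjusted p from 0.291 to 0.981.

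Within slide 2, which holds EGFP replicates 1 and 3 and Tip60 replicates 2 and 4, Pcdh9, Pcdh8, Pcdh19, Pcdh21 and the Pcdhga7 probe kept their calls and Pcdhga1 stood just past the limit (0.54, limma adjusted p = 0.0507). Slide 3 holds 1 Tip60 array of the comparison, too few for a test within it. With slide as a block the 7 calls were kept. With Tip60 replicate 3 included they were kept too.

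Set side by side, 16 members were tested in both knockdowns, and Pcdh8, Pcdh9, Pcdh17, Pcdh19 and Pcdh21 were higher in both. Pcdh9 and Pcdh17 entered both comparisons only through knockdown RNA, so their rises were favoured by the filter. Pcdh8, Pcdh19 and Pcdh21 were bright in EGFP RNA as well. Over the 25151 probes tested in both, of either kind, 9.06% were higher in both. Pcdh8 had near-equal estimates, 2.45 and 2.47 (difference of the p400 minus the Tip60 effect -0.02 ± 0.33). For Pcdh19 the difference was -0.08 ± 0.14. One member passed the test of the difference, the Pcdh9 probe A_52_P197199 (-2.29 ± 0.24, adjusted p = 0.0262 from the limma estimates), where 3.45% of all probes tested were called, 1.98% with a higher and 1.46% with a lower p400 effect. The call for Pcdh9 depends on the processing of the p400 arrays. With LogRatio as deposited for p400 the difference was -0.29 (adjusted p = 0.515). Pcdh8 was then the 1 member called, with a larger effect of p400 (1.95, adjusted p = 0.0365). Pcdh17 stood at -1.03 (adjusted p = 0.155 from the limma estimates). Over the alternatives its difference ranged from -1.03 to 1.67, so its sign was not stable, and it was called in none. The 2 experiments differ in dyes, slides and background handling as well as in the target, which cannot be told apart in these differences.

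**Figure D4:**
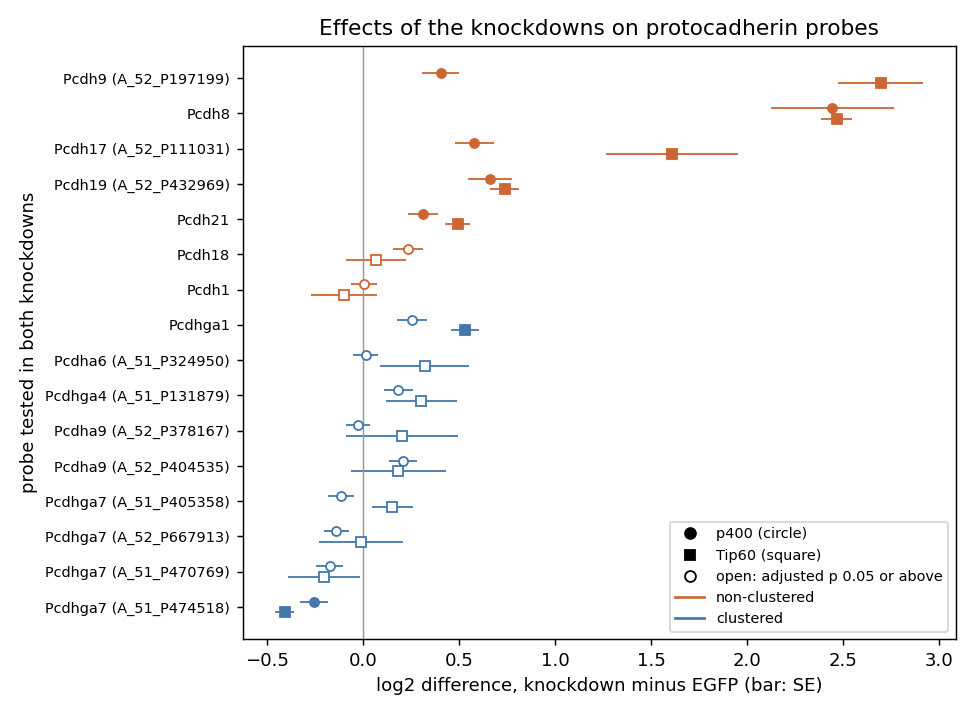
Log2 difference between knockdown and EGFP (horizontal axis, bar for SE) for the 16 protocadherin probes tested in both knockdowns (vertical axis), with circles for p400 and squares for Tip60, filled where adjusted p was under 0.05. The circle and the square of Pcdh8 nearly coincide at 2.45 and 2.47, and those of Pcdh9 lie at 0.40 and 2.70.

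Slc25a2, a mitochondrial ornithine carrier whose gene lies between the beta and gamma genes, fell in both knockdowns. Its log2 ratios were -0.81, -0.58, -0.92 and -0.21 on the p400 arrays, all below 0 (-0.63 ± 0.08, limma adjusted p = 0.00372). Its levels were -4.50 to -4.44 in EGFP and -5.13 to -5.05 in Tip60 RNA, with no overlap (-0.60 ± 0.05, limma adjusted p = 0.000239). Altogether 13 probes with other names lie between the first and last clustered protocadherin probe, 7 of which could be tested. Taf7, a subunit of the general transcription factor TFIID, had 3 of them. In p400 knockdown these disagreed: one rose (0.41, limma adjusted p = 0.0101) and the others stood at -0.16 and -0.14. The remaining tested probes did not pass in either knockdown. The 17 gene names in or beside the clusters were read with 1 probe each. In p400 knockdown this was the probe with the highest mean log2 ratio, which favours rises, and in Tip60 knockdown the brightest. For Taf7 in p400 knockdown it was the probe that rose. So read, 2 rose and 3 fell in p400 and 0 rose and 3 fell in Tip60 knockdown. With the probe so chosen for every gene name, adjusted over those probes, 4269 of 18845 tested were higher and 2143 lower in p400 knockdown. Over all 27962 probes the p400 split was 5052 and 4208, so the p400 counts by name lean toward rises. In Tip60 knockdown 2561 of 17085 were higher and 1679 lower. Besides those above, Dnd1, an RNA-binding protein of germ cells, fell in both (-0.32 and -0.23, limma adjusted p = 0.0265 and 0.0399). The medians were -0.08 and -0.03.

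The regulator list holds CTCF, cohesin, DNA methylation and silencing factors, several of which are known to act on clustered protocadherin promoters. Of its 19 genes, 4 rose and 1 fell in p400 knockdown (median 0.06), where 4269 of all 18845 gene names tested were higher and 2143 lower. Both p400 counts take the probe with the highest ratio per name and so favour rises. Dnmt3a, a de novo DNA methyltransferase, rose by 1.16 (limma adjusted p = 0.00218), Trim28, a corepressor, by 0.63 (adjusted p = 0.0041) and Wapl, which releases cohesin, by 0.44 (adjusted p = 0.0491). The Wapl value comes from the probe with the highest p400 ratio, A_51_P160625. In Tip60 knockdown Wapl was read with another, A_52_P97154, so its p400 call holds for 1 probe only. The cohesin subunit Smc1a fell by 0.33 (limma adjusted p = 0.0293). In Tip60 knockdown 0 of the 19 rose and 3 fell (median -0.05), among them Stag1, of cohesin (-0.30, limma adjusted p = 0.0308), and Dnmt3b (-0.22, adjusted p = 0.0428), which rose in p400 knockdown (0.36, limma adjusted p = 0.0281). Over all gene names in Tip60 knockdown, 2561 of 17085 were higher and 1679 lower. Ctcf itself stood at 0.01 in p400 and -0.04 in Tip60 knockdown.

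Of 17 tested genes for proteins that bind or act with protocadherins, 2 rose and 2 fell in p400 and 0 rose and 1 fell in Tip60 knockdown (medians 0.03 and -0.08). For this list and the other cadherins, the counts over all gene names were 4269 higher and 2143 lower of 18845 in p400 knockdown. They were 2561 and 1679 of 17085 in Tip60 knockdown. The p400 counts again take the probe with the highest ratio per name and favour rises. Wasf1, of the WAVE actin complex that delta protocadherins recruit, rose by 1.27 in p400 knockdown (limma adjusted p = 0.0013). Marcks, an actin-binding membrane protein, fell in both (-1.11 and -0.56, limma adjusted p = 0.00189 and 0.000663). Of 35 other cadherins, 22 were tested in p400 knockdown, where 3 rose and 2 fell (median 0.06). Cdh4 rose by 0.69 and Celsr1, a cadherin of planar cell polarity, fell by 0.58 (limma adjusted p = 0.00526 and 0.00284). In Tip60 knockdown 16 were tested, 2 rose and 3 fell (median 0.06). Cdh24 rose by 0.66, the desmosomal cadherin Dsg2 fell by 0.42 and Celsr1 by 0.36 (limma adjusted p = 0.0285, 0.00504 and 0.024). Cdh1, the main cadherin of embryonic stem cells, stood at -0.10 in p400 and fell by 0.24 in Tip60 knockdown (limma adjusted p = 0.346 and 0.0435).

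Many protocadherins are transcribed in neurons or other differentiated cells, so markers of such cells are given beside them. Over all gene names, 4269 of 18845 tested were higher and 2143 lower in p400 knockdown, and 2561 of 17085 were higher and 1679 lower in Tip60 knockdown. The p400 counts here and below take the probe with the highest ratio per name and so favour rises. Of 14 neural markers, 5 of 11 tested rose and 0 fell in p400 knockdown, and 2 of 9 rose and 2 fell in Tip60 knockdown. The 2 that fell, Pax6 and Ncam1, were read with different probes in p400 knockdown, so these counts do not compare the same probes. The summed signal of the neural list, relative to the 75th percentile, was 8.71 to 9.26 in EGFP and 9.36 to 10.1 in Tip60 RNA, and its ratio of p400 over EGFP was 0.95 to 1.24. Dcx and Neurog2, which define young neurons, were above background on none of the 7 single-colour arrays. Endoderm markers rose in 4 of 6 and 5 of 5 tested genes (summed signal 0.60 to 0.62 in EGFP and 0.98 to 1.06 in Tip60 RNA, ratio 1.49 to 1.91 on the p400 arrays) with every gene of the list above background on some single-colour array. Mesoderm markers rose in 2 of 5 and 2 of 5 and fell in 1 and 0 (0.51 to 0.59 against 0.959 to 1.001, ratio 1.28 to 2.10), with Mixl1 above background on no single-colour array. Trophectoderm markers rose in 4 of 6 and 2 of 6 (74.2 to 84.2 against 80.2 to 96.7, ratio 1.74 to 2.06). Markers of 2-cell-like cells rose in 5 of 5 in both (38.1 to 42.6 against 223 to 237, ratio 11.6 to 30.4). Markers of feeder fibroblasts rose in 3 of 8 and 2 of 8 and fell in 1 and 1 (34.5 to 40.7 against 36.0 to 39.0, ratio 0.78 to 0.97), with Lum above background on no single-colour array. The part of these cells in the protocadherin results was not tested. Of the 9 pluripotency markers, 0 rose and 2 fell in p400 and 1 rose and 2 fell in Tip60 knockdown, with medians of -0.12 and -0.11.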

How the data were processed

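RNA of 12 samples was measured on Agilent arrays. Per the file headers, Feature Extraction 9.5.1.1 gave spot intensity (mean, median, background and processed signal), flags, and a LogRatio, the log10 ratio of red over green. The deposited series matrix holds the authors' log2 values, whose steps are not given in the sources used here. Its p400 columns had medians from 0 to 0.01, and its other columns had medians from 7.26 to 7.27.

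For p400, normexp (offset 50), loess within arrays and limma 3.58.1 (R 4.3.3) with a dye term were used. For Tip60, log2 processed signal minus the array's 75th percentile was compared by limma in replicates 1, 2 and 4 against 4 EGFP arrays. Tip60 replicate 3 was left out as in the submitters' design. The 1639 control spots and outlier flags were dropped. The unit is the probe, tested where bright (flag for well above background) on 3 or more arrays of a group, with Benjamini-Hochberg adjustment over all probes tested. The difference between knockdowns was tested against its combined standard error, with the smaller degrees of freedom. P-values measure the spread between these samples.

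The members and gene lists were chosen with earlier results of these data known. Every tested probe past the threshold, the tested non-clustered genes, and up to 3 rises and 3 falls per list were named. One gene of the regulator list is counted there but not reported here. Alternatives changed normalization, starting values, filter, dye term, slide, replicate block, unit and replicates. Sequences come from the probe column of the files and from RefSeq. The scripts were tested on simulated data.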

Additional observations from a re-analysis of the deposited data

Results flagged for a closer look

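Of 55 groups of array values of tested protocadherin probes, 4 held an array whose gap to the nearest value exceeded Dixon's 95% critical value, and chance flags about 1 in 20 groups. Pcdh21 stood at 0.55 on p400 replicate 2 against 0.20 to 0.25 on the other arrays. The Pcdh17 probe A_52_P111031 stood at -4.57 in EGFP replicate 3, and at -4.53 in Tip60 replicate 3. Pcdhga1 stood at -2.49 in Tip60 replicate 3.

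The Pcdh9 probe A_52_P197199 differed between the knockdowns by -2.29 (p400 minus Tip60 effect), and by -0.29 with LogRatio as deposited for p400. On Tip60 replicate 3, an array outside the comparison, 6 probes that were dim on all EGFP arrays (-8.25 to -6.03) had high signals, with log2 levels of -2.83 for Pcdh20, -2.20 for Pcdhb1, -1.38 for Pcdhb6, -0.73 for Pcdhb9, -2.62 for Pcdhb16 and -1.33 for Pcdhb17. All 6 were well above background on that array, and Pcdhb6 and Pcdhb16 were so on 1 of the other 3 Tip60 arrays as well.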

How the results depend on the processing

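Over the alternatives, 226 of 262 p400 effects, 275 of 280 Tip60 effects and 71 of 74 differences on single protocadherin probes kept their side of the threshold. An effect called in neither setting counted as kept even where its sign changed. The Pcdha6 probe A_51_P324950 in Tip60 knockdown, for example, went from 0.32 to -0.07 with normexp and quantile normalization. Pcdh8, Pcdh17 and Pcdh19 kept their p400 calls in every setting that tested them, and Pcdh8, Pcdh9, Pcdh19 and Pcdh21 their Tip60 calls. The Pcdh1 effect of p400 turned to -0.25 with median centring, and the Pcdh8 difference to 1.95 with LogRatio as deposited for p400, an alternative chosen after seeing the data. Members higher in p400 (6) were 10 with series matrix values and 3 to 7 without each replicate, with 3 without replicate 2 and 3 without replicate 3. Members lower in p400 (1) were 3 with median centring, 3 with LogRatio as deposited, 0 with a common spread and 0 without the dye term. They were 0 without each replicate, and 0 with 1 probe per name, the one with the highest mean log2 ratio. That choice left out the Pcdhga7 probe A_51_P474518 because of its ratio. Members differing between knockdowns (1) were 0 among probes above background on all arrays and 2 with median centring. All probes called in p400 (9260) were 3398 with a common spread and 4610 to 8407 without each replicate, the fewest without replicate 2. All probes called in Tip60 (5743) were 3635 without a filter and 2241 within slide 2. The p400 split of 5052 higher and 4208 lower was 3917 and 9584 with median centring and 5251 and 6918 with LogRatio. The Tip60 split of 3348 and 2395 was 2242 and 2776 with normexp, 2698 and 3818 with quantile normalization and 2192 and 2684 with series matrix values. The deviations of same-numbered EGFP and Tip60 arrays had r = -0.37, -0.11 and -0.25 for replicates 1, 2 and 4. Each of these pairs lay on different slides, so the values cannot tell pairing from slide. Pairs on the same slide had r from 0.16 to 0.31. Pairs with different numbers on different slides had -0.10 and -0.06. With the replicate block, 2247 probes were called in Tip60 and 0 members lower, the Pcdhga7 probe standing at -0.41 (limma adjusted p = 0.0506). The cause of these shifts was not tested. Dim signal limits what can be said of the beta genes.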
